A study of Mus musculus with 2 samples.

Results

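The interleukin 1 (IL-1) family of ligands and receptors was examined in primary mouse neonatal ventricular cardiomyocytes (mNVCM) on 2 Affymetrix arrays. The family was taken as a list of 10 genes, namely *Il1a*, *Il1b*, *Il1rn*, *Il18*, *Il33*, *Il1r1*, *Il1r2*, *Il1rap*, *Il1rl1* and *Il18r1*. Of these, 9 were measured, by 16 of the 34958 probe sets that carried 1 gene, among 18193 genes in all. *Il1rl1*, the receptor of IL-33, had no probe set whose annotation named it alone and was not analysed here.

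The first array held hAFS-CMHypo + Dox cells, which received medium conditioned by hypoxic human amniotic fluid stem cells (hAFS) for 3 h and then 1 µM doxorubicin (Dox), an anthracycline that damages DNA. The second held Dox cells, which received Dox without the conditioned medium. All cells came from ventricles of C57BL6/J mice at postnatal day 2 and were kept for 1 h in medium with 0.5% serum before treatment. The labels give 6 h of Dox for hAFS-CMHypo + Dox cells and 21 h for Dox cells, whereas the study's methods give 6 h for both. If the labels hold, pre-incubation and hours of Dox cannot be told apart. Untreated cells and cells with hAFS-CMHypo alone were not analysed here. The conditioned medium is human and the arrays measure mouse transcripts, so proteins added with the medium were outside the measurement.

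Each condition had 1 array, so there was no replicate to check a difference against and no p-value or standard error is given. The values describe these 2 arrays. The deposited log2 values covered 45101 probe sets, with a 25th percentile of 3.80 and a median of 5.10 over both arrays. A log2 ratio is the log2 level in hAFS-CMHypo + Dox cells minus that in Dox cells. The one spread that could be computed was how far probe sets for 1 gene disagreed, which holds no variation between cultures. Its SD in log2 ratio was 0.21 over 5299 genes, from probe sets whose higher array reached the median, and is the spread used below. By level of the higher array, it was 0.17 below the 25th percentile and 0.25 from there to the median. It was 0.26 from the median to the 75th percentile and 0.17 above that. Cardiomyocyte markers had log2 levels of 11.88 to 14.99 in hAFS-CMHypo + Dox cells and 12.09 to 15.05 in Dox cells. The highest markers of fibroblasts, endothelium and macrophages had log2 levels of 12.05, 10.17 and 8.87 in hAFS-CMHypo + Dox cells. In Dox cells these were 11.81, 10.12 and 8.54, so the cultures probably held RNA of several cell types. Mural cell markers ranged from 4.97 to 14.40 in hAFS-CMHypo + Dox cells and from 4.89 to 14.40 in Dox cells, which does not settle whether mural cells were present. In such bulk samples, more cells of a type and more RNA per cell cannot be told apart.

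IL-1α and IL-1β are inflammatory cytokines that bind the receptor IL-1R1, which then pairs with the accessory protein encoded by *Il1rap* and signals through MyD88 and IRAK kinases to NF-κB. The pathway is held in check by the receptor antagonist encoded by *Il1rn*, which occupies IL-1R1 without starting a signal, and by the decoy receptor IL-1R2. IL-18 and IL-33 use receptors of the same build, and in the heart the family is best known for the inflammation that follows injury, in which IL-1β depresses contraction and IL-33 is released by damaged cells.

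The promoter windows of the members are shown first, to give the start-site sequence beside the levels that follow. RefSeq on GRCm38.p6 gave 17 windows for the 10 members, each the 250 bases before a transcription start, and they were searched on both strands. The TATA box TATAAA occurred in 5 of the 17 windows, of 4 members, against 12.4% of 32851 windows of all genes. It lay 31 to 26 bases before the start of *Il1b*, 32 to 27 before that of *Il1a* and 29 to 24 before the second start of *Il33*. The AP-1 motif TGANTCA occurred in 2 windows, those of *Il1a* and *Il1rn*, against 6.75% of all windows. The NF-κB consensus occurred in 1 window, that of the downstream start of *Il1r1*, 232 to 223 bases before the start and on the opposite strand, against 7.25% of all windows. The matches are a description of the sequence and no motif overlapped another. The 4 windows below are those of the 2 neighbouring IL-1 ligand genes, of *Il33* and of *Il1r1*, written 5′ to 3′ along the gene, with TATAAA in capitals in the first 3 and the NF-κB match in capitals in the fourth.
Il1b, chr2:129371140-129371389, minus strand: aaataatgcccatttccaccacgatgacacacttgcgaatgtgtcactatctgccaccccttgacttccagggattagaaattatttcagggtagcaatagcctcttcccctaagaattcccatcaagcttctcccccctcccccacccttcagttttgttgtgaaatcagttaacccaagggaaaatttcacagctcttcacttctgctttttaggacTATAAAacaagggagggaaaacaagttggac
Il1a, chr2:129309973-129310222, minus strand: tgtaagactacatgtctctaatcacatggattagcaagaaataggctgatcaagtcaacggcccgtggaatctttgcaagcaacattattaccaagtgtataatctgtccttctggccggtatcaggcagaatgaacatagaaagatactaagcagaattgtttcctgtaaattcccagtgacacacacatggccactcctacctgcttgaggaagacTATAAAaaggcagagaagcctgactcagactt
Il33, second start, chr19:29945540-29945789, plus strand: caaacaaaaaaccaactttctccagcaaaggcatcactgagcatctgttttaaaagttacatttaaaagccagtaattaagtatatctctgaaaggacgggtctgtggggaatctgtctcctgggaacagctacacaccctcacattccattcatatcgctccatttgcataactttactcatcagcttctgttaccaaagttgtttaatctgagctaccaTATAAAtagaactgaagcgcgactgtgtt
Il1r1, downstream start, chr1:40266336-40266585, plus strand: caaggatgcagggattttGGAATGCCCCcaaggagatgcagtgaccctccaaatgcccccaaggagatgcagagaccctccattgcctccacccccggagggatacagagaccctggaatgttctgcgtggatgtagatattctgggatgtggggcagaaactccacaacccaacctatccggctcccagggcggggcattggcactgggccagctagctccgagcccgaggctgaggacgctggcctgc

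Among the ligands, *Il1b* was higher in hAFS-CMHypo + Dox cells, while *Il1a*, its neighbour on chromosome 2, lay at the low end of the arrays in both conditions. *Il1b*, which encodes the precursor of IL-1β, had a log2 level of 6.95 in hAFS-CMHypo + Dox cells and 6.01 in Dox cells. Its log2 ratio of 0.94, or 1.92-fold, ranked 109 of 18193 genes from the highest and lay just under the 2-fold threshold that the study's methods use. The *Il1b* ratio rested on 1 probe set. *Il1a*, which encodes the precursor of IL-1α, had log2 levels of 3.18 in hAFS-CMHypo + Dox cells and 3.16 in Dox cells, with a log2 ratio of 0.02. Both of its levels were below the 25th percentile of all values, where a difference in transcript could not be read. The 2 genes thus differed in whether they were measured above the low end. Both windows above carry TATAAA at nearly the same distance from the start, and that of *Il1a* also holds a TGANTCA match. Whether these sequences bear on the levels was not tested.

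*Il33*, which encodes a nuclear cytokine released by damaged cells, had a log2 level of 6.33 in hAFS-CMHypo + Dox cells and 5.82 in Dox cells, a log2 ratio of 0.51 or 1.42-fold. *Il18*, which encodes a cytokine that drives interferon-γ production in lymphocytes, had log2 levels of 4.01 in hAFS-CMHypo + Dox cells and 4.19 in Dox cells. The log2 ratio of *Il18* was -0.18, within the spread between probe sets of a gene. The *Il33* ratio was beyond that spread, and each of these genes rested on 1 probe set.

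The antagonist gene *Il1rn* gave different answers at its 3 probe sets. Its probe set of highest mean had a log2 level of 6.45 in hAFS-CMHypo + Dox cells and 5.91 in Dox cells, a log2 ratio of 0.54 or 1.45-fold. The others gave log2 levels of 5.86 in hAFS-CMHypo + Dox cells and 5.82 in Dox cells, a ratio of 0.04, and of 4.44 in hAFS-CMHypo + Dox cells and 4.69 in Dox cells, a ratio of -0.25. Which transcripts of *Il1rn* each probe set reads was not analysed here, and its mean over the 3 probe sets was 0.11, within the spread.

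Of the receptors, *Il1r1* and *Il1r2* were higher in hAFS-CMHypo + Dox cells. *Il1r1*, the signalling receptor for both IL-1 ligands, had a log2 level of 8.85 in hAFS-CMHypo + Dox cells and 8.06 in Dox cells. Its log2 ratio was 0.79, or 1.73-fold, and ranked 183 of 18193 genes from the highest. The other *Il1r1* probe set had log2 levels of 2.69 in hAFS-CMHypo + Dox cells and 2.77 in Dox cells, both below the 25th percentile, with a log2 ratio of -0.09. The difference in *Il1r1* thus rested on the probe set that stood above the low end of the arrays. *Il1r2*, the decoy receptor, had log2 levels of 5.28 in hAFS-CMHypo + Dox cells and 4.66 in Dox cells, a log2 ratio of 0.61 or 1.53-fold. The *Il1r2* levels stood on either side of the median of all values and came from 1 probe set.

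*Il1rap*, the accessory chain shared by the receptors for IL-1 and IL-33, was measured by 5 probe sets that did not move together. The *Il1rap* probe set of highest mean had log2 levels of 7.80 in hAFS-CMHypo + Dox cells and 7.64 in Dox cells, a log2 ratio of 0.16 that lay within the spread between probe sets. The next had log2 levels of 6.23 in hAFS-CMHypo + Dox cells and 5.76 in Dox cells, a ratio of 0.47, and the third 5.19 in hAFS-CMHypo + Dox cells and 4.81 in Dox cells, a ratio of 0.39. The remaining *Il1rap* probe sets had both levels below the 25th percentile and log2 ratios of -0.07 and -0.39. The 3 probe sets of *Il1rap* above that percentile were all higher in hAFS-CMHypo + Dox cells, by 0.16 to 0.47 on the log2 scale. *Il18r1*, the ligand-binding chain of the IL-18 receptor, had log2 levels of 3.04 in hAFS-CMHypo + Dox cells and 3.23 in Dox cells, both below the 25th percentile, with a log2 ratio of -0.20.

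**Figure D1:**
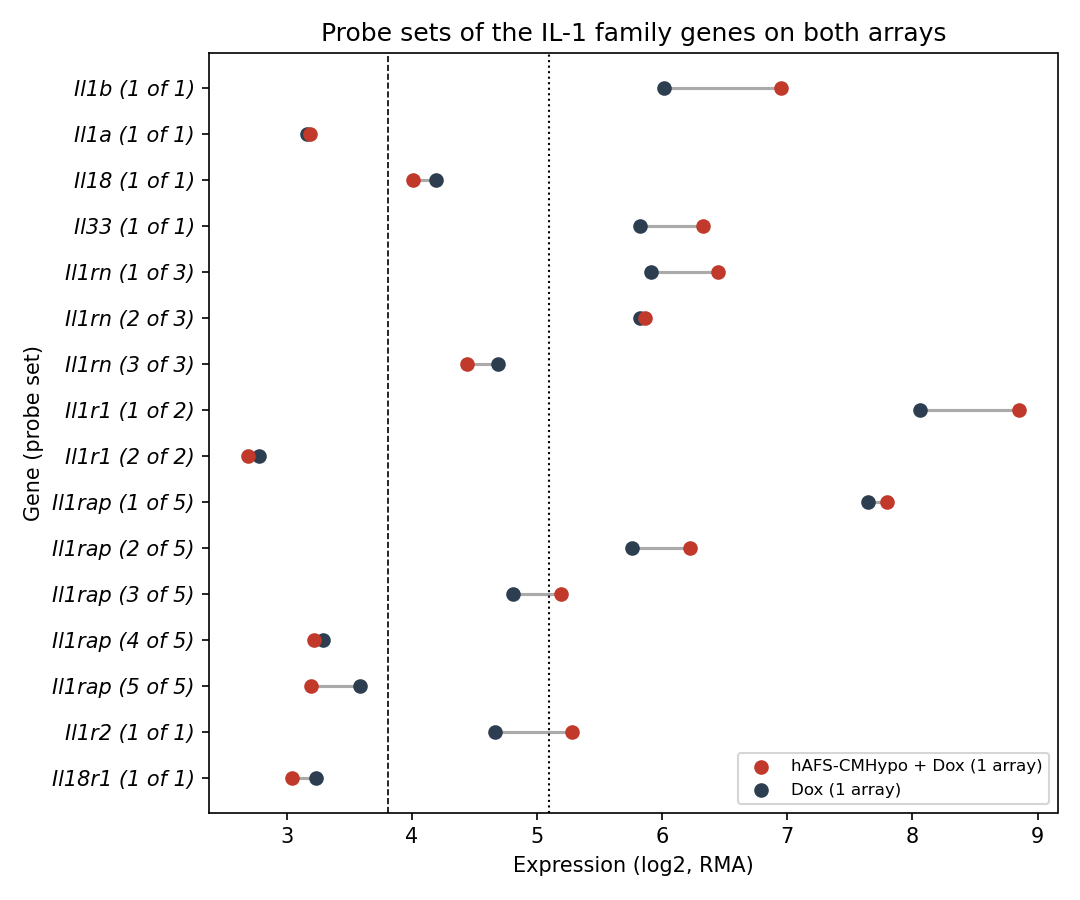
RMA log2 level (horizontal axis) of the 16 probe sets of the 9 measured members in hAFS-CMHypo + Dox cells (red) and Dox cells (dark), 1 array each, with the 25th percentile (3.80, dashed) and the median (5.10, dotted) of all values. *Il1b* and the upper *Il1r1* probe set lie farthest apart, with log2 ratios of 0.94 and 0.79, and 5 probe sets lie below the 25th percentile on both arrays.

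Over the list, 0 of the 9 measured members were higher by 2-fold or more and 0 were lower, beside 0.506% of all genes higher and 0.214% lower. At 1.5-fold, 3 members (*Il1b*, *Il1r1* and *Il1r2*) were higher, beside 2.32% of all genes, and 0 were lower, beside 1.52%. *Il1r2* at 1.53-fold was the member just inside this threshold and *Il1rn* at 1.45-fold the one just outside. Beyond the spread between probe sets of a gene, 5 members were higher, beside 17.5% of all genes, and 0 were lower, beside 15.5%. The 5 were *Il1b*, *Il1r1*, *Il1r2*, *Il1rn* and *Il33*.

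The median log2 ratio was 0.51 over the 9 measured members and 0.01 over all genes, with 7 members above 0 and 2 below, beside 9313 above and 8869 below of all 18193 genes. By role, the median log2 ratio was 0.51 over the 5 ligand and antagonist genes and 0.39 over the 4 measured receptor genes. Counted by probe set the difference was smaller, with 10 of 16 above 0, beside 17646 of all 34945 probe sets compared, and a median of 0.10, since *Il1rn*, *Il1r1* and *Il1rap* had probe sets of both signs.

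**Figure D2:**
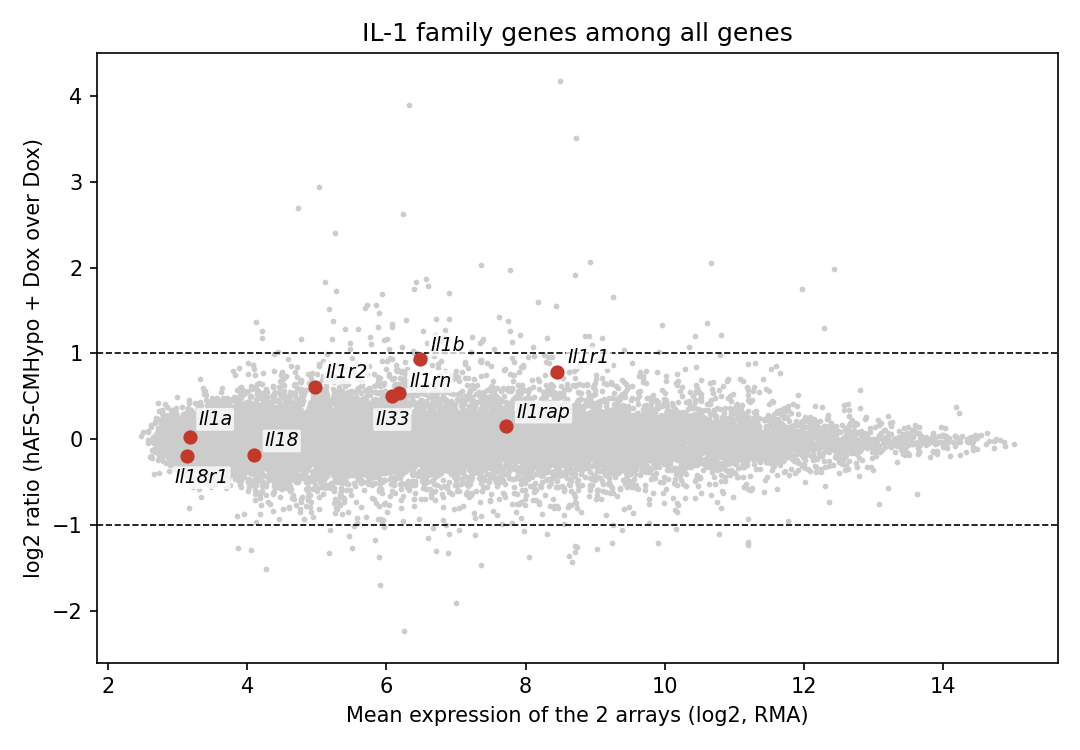
Log2 ratio of hAFS-CMHypo + Dox over Dox (vertical axis) against the mean log2 level of the 2 arrays (horizontal axis) for 18193 genes (grey) and the 9 measured members (red), with dashed lines at 2-fold. All members lie inside the 2-fold lines, *Il1b* nearest to the upper one with a log2 ratio of 0.94.

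The genes that make and release mature IL-1β were mostly close to 0. Of 13 listed, 10 were measured, 0 passed 2-fold in either direction, 2 were higher by 1.5-fold or more beside 2.32% of all genes, and the median log2 ratio was 0.11 beside 0.01 over all genes. *Casp4*, the caspase that senses intracellular lipopolysaccharide, had log2 levels of 5.95 in hAFS-CMHypo + Dox cells and 5.10 in Dox cells, a log2 ratio of 0.84. *Panx1*, which forms a membrane channel for ATP, had log2 levels of 9.57 in hAFS-CMHypo + Dox cells and 8.90 in Dox cells, a log2 ratio of 0.67. The log2 ratios of *Casp8* (0.21) and *Nek7* (0.13), which encode a caspase and a kinase tied to inflammasomes, were the next largest in size under the same rule. *Casp1*, the caspase that cleaves the IL-1β precursor, is named for that role after its values were seen and had log2 levels of 3.79 in hAFS-CMHypo + Dox cells and 4.26 in Dox cells, a log2 ratio of -0.47 at low level. These transcripts give no reading of how much IL-1β was cleaved or secreted, which was not analysed here.

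The signalling genes downstream of IL-1R1 had a median log2 ratio of 0.10 over 20 measured of 24 listed, beside 0.01 over all genes. None (0 of 20) passed 2-fold, beside 0.506% of all genes higher and 0.214% lower, and 2 were higher by 1.5-fold or more, beside 2.32%. *Irak3*, whose product is an inhibitory member of the IRAK family, had log2 levels of 5.25 in hAFS-CMHypo + Dox cells and 4.49 in Dox cells, a log2 ratio of 0.76, with 0.20 at its other probe set. *Irak2*, a kinase of the same family, had log2 levels of 7.07 in hAFS-CMHypo + Dox cells and 6.43 in Dox cells, a log2 ratio of 0.64. *Myd88*, the adaptor of the IL-1 receptors and of most Toll-like receptors, had log2 levels of 8.65 in hAFS-CMHypo + Dox cells and 8.08 in Dox cells, a log2 ratio of 0.57. *Nfkbia*, which encodes the NF-κB inhibitor IκBα and is itself a target of NF-κB, had a log2 ratio of 0.29, between 0.18 and 0.52 over 5 probe sets. *Irak1*, next in size, had a log2 ratio of -0.29, between -0.29 and -0.06 over 4 probe sets. Beyond the spread between probe sets of a gene, 6 of the 20 were higher and 1, *Irak1*, was lower, beside 17.5% and 15.5% of all genes.

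Among genes that IL-1 is known to induce, 10 of 24 measured were higher by 2-fold or more and 0 were lower, beside 0.506% of all genes higher and 0.214% lower, with a median log2 ratio of 0.84 beside 0.01. Of the 24, 22 had log2 ratios above 0 and 2 below. Those below, named for their sign after their values were seen, were *Nos2* with -0.24 and *Saa3* with -0.10. *Il6*, *Cxcl1*, *Cxcl2*, *Cxcl5*, *Ccl2* and *Vcam1* of this list were picked by the study on these arrays. Other inflammatory signals induce these genes too, so the count is no independent evidence about IL-1. *Cxcl2*, a neutrophil chemokine, had log2 levels of 6.51 in hAFS-CMHypo + Dox cells and 3.57 in Dox cells, and since its level in Dox cells was below the 25th percentile, the size of its ratio is uncertain. *Il6* had a log2 ratio of 2.62, and *Bcl3*, a nuclear IκB protein that the study did not single out, had a log2 ratio of 1.69. *Ptgs2*, the inducible cyclooxygenase, had a log2 ratio of 1.21, *Mmp3*, a matrix protease, of 1.15 and *Lcn2*, an iron-binding acute phase protein, of 1.09. *Cxcl5* (1.79), *Cxcl1* (1.26) and *Ccl2* (1.21) also passed 2-fold by their log2 ratios, *Cxcl1* with 0.21 to 2.21 over 3 probe sets. The tenth was *Sele*, named here although its levels of 4.85 in hAFS-CMHypo + Dox cells and 3.59 in Dox cells were below the median of all values, the one in Dox cells also below the 25th percentile. None of the 9 measured members of the family reached the 2-fold change of these genes.

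**Figure D3:**
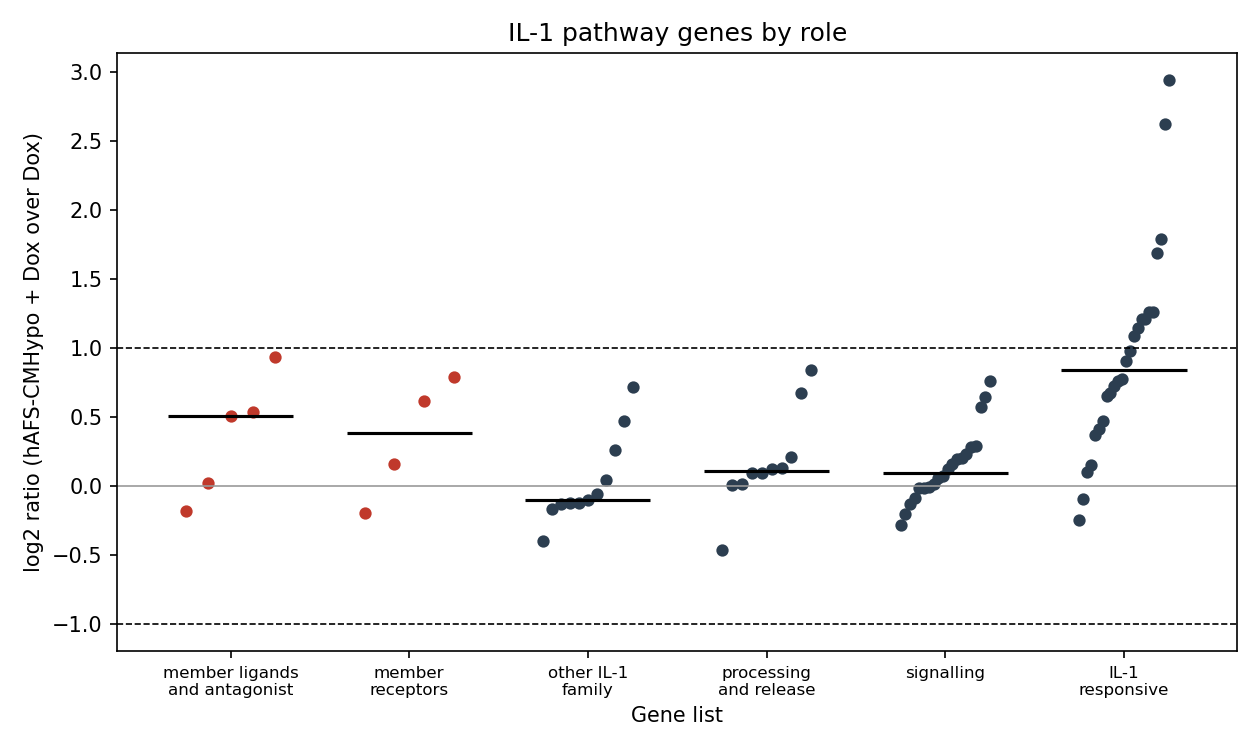
Log2 ratio of hAFS-CMHypo + Dox over Dox for each measured gene (points) of the member lists (red) and of 4 further lists of the IL-1 pathway (dark), with the median of each list as a bar and dashed lines at 2-fold. The medians are 0.51 for member ligands and antagonist and 0.39 for member receptors, against 0.84 for IL-1 responsive genes.

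The other genes of the family had a median log2 ratio of -0.10, beside 0.51 over the members and 0.01 over all genes. All 11 listed were measured, with 0 past 2-fold and 1, *Il1rl2*, higher by 1.5-fold or more, beside 2.32% of all genes. *Il18bp*, which encodes a secreted protein that neutralises IL-18, had log2 levels of 7.08 in hAFS-CMHypo + Dox cells and 6.61 in Dox cells, a log2 ratio of 0.47. *Il18rap*, the accessory chain of the IL-18 receptor, had log2 levels of 5.76 in hAFS-CMHypo + Dox cells and 6.16 in Dox cells, a log2 ratio of -0.40 at this probe set and -0.01 at its other one. *Sigirr*, an inhibitory receptor of the family, had a log2 ratio of -0.16, and *Il1f10*, the gene of IL-38, of -0.06. The genes of the IL-18 system (*Il18*, *Il18r1* and *Il18rap*) had ratios below 0 at the probe sets of highest mean, beside 0.47 for the gene of the binding protein. Of these, *Il18rap* alone was beyond the SD of 0.21. *Il18r1* was below the 25th percentile on both arrays, so its ratio carries no reading of a change.

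Several members sit side by side in the genome, and their order on GRCm38.p6 was set beside their ratios. The receptor cluster on chromosome 1 holds 6 genes of the family, of which 5 were measured. *Il1r2*, *Il1r1* and *Il1rl2*, the receptor gene for IL-36, are consecutive and had log2 ratios of 0.61, 0.79 and 0.72 at their probe sets of highest mean. The other probe set of *Il1rl2* gave 0.13, within the spread, and that of *Il1r1* gave -0.09, as above. The *Il1rl2* log2 levels were 4.89 in hAFS-CMHypo + Dox cells and 4.17 in Dox cells, both below the median of all values, and the gene is named here for its place in the cluster after its values were seen. On the far side of *Il1rl1*, *Il18r1* and *Il18rap* had log2 ratios of -0.20 and -0.40. The other *Il18rap* probe set gave -0.01, and *Il18r1* was below the 25th percentile on both arrays, so its ratio gives no reading of a change. The flanking genes *Map4k4* and *Slc9a4* had log2 ratios of 0.02 and 0.17. The *Slc9a4* levels of 3.67 in hAFS-CMHypo + Dox cells and 3.50 in Dox cells were both below the 25th percentile, so that flank gives no reading of a change.

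On chromosome 2, the antagonist gene *Il1rn* stands at the end of a cluster of 6 genes of the family. Its log2 ratio was 0.54 where its level was highest, while its other probe sets gave 0.04 and -0.25, as above. The other 5 genes of that cluster had log2 ratios of -0.12 to 0.26, a range that holds the *Il1rn* mean of 0.11 over 3 probe sets. Of those genes, *Il1f5*, *Il1f6*, *Il1f8* and *Il1f9* were below the median of all values on both arrays. The *Il1a* and *Il1b* pair on the same chromosome had log2 ratios of 0.02 and 0.94, and *Ckap2l* beside them had -0.26.

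**Figure D4:**
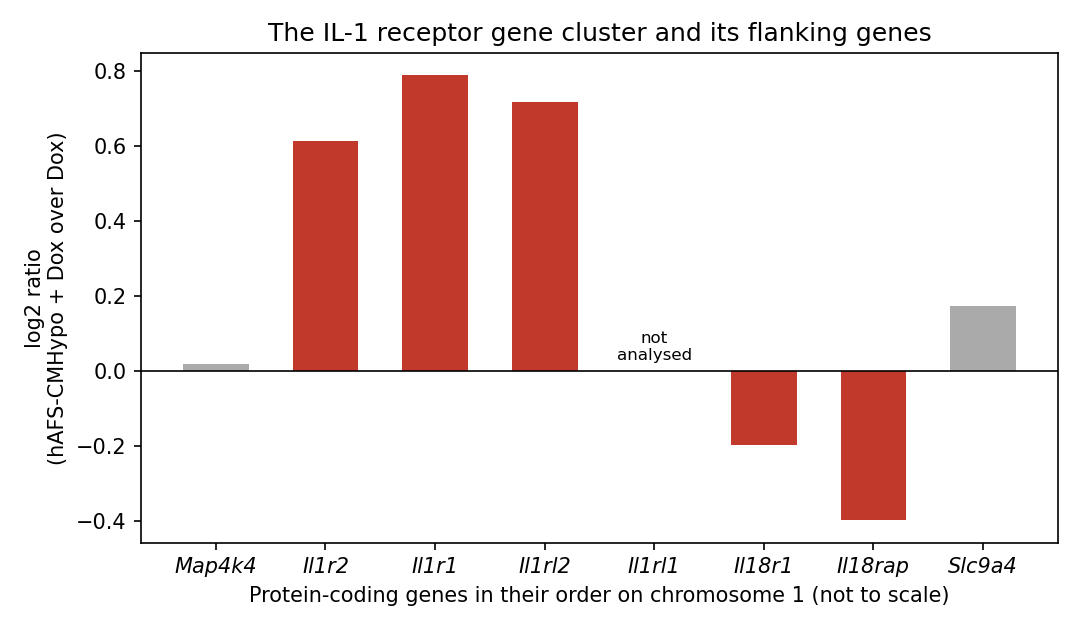
Log2 ratio of hAFS-CMHypo + Dox over Dox (bars, 1 array per condition) of the receptor genes (red) and flanking genes (grey) in their order on chromosome 1, not to scale. Each bar is the probe set of highest mean: *Il1r2*, *Il1r1* and *Il1rl2* stand at 0.61 to 0.79 (0.13 at the other *Il1rl2* probe set and -0.09 at that of *Il1r1*). *Il18r1*, below the 25th percentile on both arrays, and *Il18rap* stand at -0.20 and -0.40 (-0.01 at the other *Il18rap* probe set).

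Markers of the cell types that could supply these transcripts are given as summed levels, in which the most abundant markers weigh most, and single markers moved in both directions. Macrophages are a main source of IL-1β, and the log2 of the summed level of 10 macrophage markers was 10.87 in hAFS-CMHypo + Dox cells and 10.65 in Dox cells, a difference of 0.22 beside 0.94 for *Il1b*. Of these markers, 5 were higher and 1 was lower beyond the spread, beside 17.5% and 15.5% of all genes, from *Cd14* with a log2 ratio of 0.80 to *Itgam* with -0.58. Among the 5 higher, *Csf1r* ranged from -0.14 to 0.33 over 3 probe sets and *Ptprc* from -0.09 to 0.48 over 2. *C1qb*, not among them, ranged from 0.03 to 0.54 over 3. The part of macrophages in the *Il1b* difference was not tested. Neutrophils also carry IL-1β and IL-1R2, and the log2 of the summed level of their 7 measured markers was 8.82 in hAFS-CMHypo + Dox cells and 8.94 in Dox cells.

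Fibroblasts and endothelium carry IL-1R1 and can make IL-33. The log2 of the summed level of 8 fibroblast markers was 13.97 in both hAFS-CMHypo + Dox cells and Dox cells, with log2 ratios of single markers from -1.03 for *Tcf21* to 1.10 for *Lum*. For 8 endothelial markers it was 11.26 in hAFS-CMHypo + Dox cells and 11.21 in Dox cells, for 8 mural cell markers 15.21 in hAFS-CMHypo + Dox cells and 15.14 in Dox cells, and for 8 mast cell markers 7.72 in hAFS-CMHypo + Dox cells and 7.70 in Dox cells. The summed cardiomyocyte markers were at 17.31 in hAFS-CMHypo + Dox cells and 17.43 in Dox cells. Outside macrophages, these log2 summed levels differed by -0.12 to 0.08. Of the 8 fibroblast markers, 3 had log2 ratios above 0 and 5 below, with a median of -0.08. The fibroblast marker *Pdgfra* ranged from -0.05 to 0.79 over 3 probe sets and *Tcf21* from -1.03 to 0.18 over 2. The part of cell makeup in the member ratios was not tested.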

How the data were processed

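RNA of mNVCM was measured on 1 Affymetrix mouse array per condition. The authors ran RMA, which the submitters' processing notes also name, with quantile normalization, and the deposited log2 values, 1 for each probe set, were used unchanged. The scale was read from their range, 2.37 to 15.05. The software version and the probe set definition were not given in the sources used here. Quantile normalization gives both arrays nearly one distribution and hides any change in total RNA.

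Gene symbols came from the platform annotation, updated through Entrez ID with RefSeq genes on GRCm38.p6 for 34754 of 34958 probe sets with 1 gene. Other probe sets were left out. Each gene was read at its probe set of highest mean over both arrays. With 1 array per condition, no test was made. Genes past 2-fold, the study's threshold, were counted, and each list is given by counts and median beside all genes. The counting was tested on simulated data. The number of arrays limits the precision.

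All 10 members are named with every probe set. From each pathway list, every gene past 2-fold and up to 4 genes with the largest absolute log2 ratio are named, if the higher array reached the median of all values. The members and lists were chosen with earlier results of these data known. Listed genes without a probe set of their own were not analysed here. Alternatives were thresholds of 1.5-fold and 3-fold, centring, lowess (span 0.3), each gene read as its mean over probe sets or at its most changed probe set, leaving out less specific probe sets, and filters at the 25th percentile and at the median. The tools were matplotlib 3.10.9, statsmodels 0.14.6, pandas 2.3.3 and numpy 2.4.6 under Python 3.11.15.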

Additional observations from a re-analysis of the deposited data

How the results depend on the processing

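With 1 array per condition, no alternative stands in for a replicate. The number of members higher by 2-fold or more was 0, and it was 3 at 1.5-fold and 0 under each other alternative listed in the methods. The number lower was 0 throughout. The median log2 ratio over the members was 0.51 and became 0.11 when a gene took the mean of all its probe sets, since further probe sets of *Il1r1*, *Il1rap* and *Il1rn* then entered. Under the others that apply to it, it moved by under 0.21, the SD given above for probe sets of 1 gene. Of 45 values of single members under the alternatives, 45 kept their sign and 42 moved by less than that SD. The exceptions were *Il1rn* at 0.11 and *Il1r1* at 0.35 with the mean of all probe sets and *Il1rap* at 0.47 with the probe set of the largest change. These are the members with several probe sets. A member with 1 probe set could not move where only the choice of probe set changed. Leaving out less specific probe sets changed no member value, so the counts do not measure how firm the ratios are. A filter at the median of all values left 6 of the 9 members and one at the 25th percentile left 7. *Il1a* and *Il18r1* were below the 25th percentile on both arrays, so their ratios carry no reading of a change. No paired analysis was possible because each condition had 1 array and the result comes from no test.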
